A study of Mus musculus with 9 samples.

Results

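The structural RNAs made by RNA polymerase III (Pol III) were examined in primary mouse microglia treated with siRNA. The set was chosen by name. It has 7 genes: Rn7sk, Rn7s1, Rn7s2, Rmrp, Rpph1, Rny1, and Rny3. The count table gave 54119 genes after the transcripts of each gene were summed, and 6 of the 7 had a row. Rn7s2 was not analysed on its own. Microglia are the resident immune cells of the brain, and small interfering RNA is used to knock down one chosen mRNA. Total RNA was sequenced from 9 libraries of primary C57BL/6J microglia, 3 each with siRNA against Chd8, with siRNA against Tsc2, and with control siRNA, numbered 1 to 3 in each group. Per the methods, RNA was taken after 3 days of siRNA treatment. The study's results text also describes stimulation with lipopolysaccharide for 3 days before sequencing, for all 3 siRNA groups. The sample labels name no such stimulation, so that this treatment cannot be checked from the labels. Per the methods, microglia were shaken off mixed cultures of whole brains from E18 embryos, and a biological replicate was the culture of a separate brain. The labels do not give the animal of a library, nor say whether libraries of the same number came from the same brain.

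Pol III transcribes short RNAs that are not translated, and most of those studied here work as the scaffold of a ribonucleoprotein. 7SK RNA (Rn7sk) holds the elongation factor P-TEFb in an inactive complex. 7SL RNA (Rn7s1 and Rn7s2) is the backbone of the signal recognition particle (SRP), which brings ribosomes to the endoplasmic reticulum. The RNA of RNase P (Rpph1) cuts the 5′ leader from precursor tRNAs, the RNA of RNase MRP (Rmrp) acts in ribosomal RNA processing, and Y RNAs (Rny1 and Rny3) bind the Ro60 protein. The comparison asks whether these RNAs differ after knockdown of Chd8, a chromatin remodeler with a known role at Pol III promoters, or of Tsc2, an inhibitor of mTORC1, which is a known activator of Pol III.

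Sequences are given for the RNAs other than 7SL, to show which could be told apart by their reads. They are the GENCODE release 21 mouse transcripts (GRCm38, the assembly of mm10), written 5′ to 3′ on the strand of the gene. 7SL RNA has 2 genes here. The transcripts of Rn7s1 (plus strand) and Rn7s2 (minus strand), both on chromosome 12, were identical over all 300 bases, so that counts listed under Rn7s1 stand for 7SL RNA of either gene.

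Rmrp lies at chr4:43492783-43493063 on the minus strand and is annotated with 2 overlapping gene models. All counts were listed under the model of 281 bases, annotated as a lincRNA, and 0 under the model of 271 bases, annotated as a ribozyme. The capitals in Rmrp mark the 5 bases at each end that the shorter model lacks.
Rmrp: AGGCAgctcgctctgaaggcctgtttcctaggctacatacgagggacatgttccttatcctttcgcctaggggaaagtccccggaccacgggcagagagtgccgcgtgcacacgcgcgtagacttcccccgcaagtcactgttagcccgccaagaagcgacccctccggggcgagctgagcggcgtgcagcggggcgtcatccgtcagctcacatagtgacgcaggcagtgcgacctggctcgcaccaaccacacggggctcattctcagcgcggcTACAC
The 2 Y RNA genes lie close together on chromosome 6, Rny1 at chr6:47788069-47788180 on the minus strand and Rny3 at chr6:47781624-47781725 on the plus strand. They are printed because one was measurable here and the other was not. The capitals mark the longest run that both share, of 12 bases.
Rny1: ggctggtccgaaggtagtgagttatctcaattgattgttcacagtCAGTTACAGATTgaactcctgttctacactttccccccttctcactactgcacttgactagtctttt
Rny3: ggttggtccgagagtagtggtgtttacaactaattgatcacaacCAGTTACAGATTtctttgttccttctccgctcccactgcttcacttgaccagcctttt
Rn7sk (331 bases) lies at chr9:78175303-78175633 and Rpph1 (319 bases) at chr14:50807449-50807767, both on the minus strand. Their last 120 bases are printed to show the 3′ end, where Pol III stops in a run of T. The capitals mark that run in Rn7sk, and no base is marked in Rpph1.
Rn7sk: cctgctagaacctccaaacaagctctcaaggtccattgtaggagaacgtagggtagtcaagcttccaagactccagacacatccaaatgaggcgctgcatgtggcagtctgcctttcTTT
Rpph1: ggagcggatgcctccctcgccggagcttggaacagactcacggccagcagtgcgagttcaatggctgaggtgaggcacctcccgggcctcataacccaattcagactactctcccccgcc
Other annotated genes took few reads from these RNAs. Near-identical copies, with at least 80% identity over at least 80% of the length, held 2 counts for Rn7sk, 14 for Rn7s1, and 16 for Rpph1 over all libraries. For Rny1, 12 such copies had 0 counts, and no such copy of Rmrp or Rny3 was annotated. On the opposite strand, Ccdc107 shares 124 exonic bases with Rmrp and had 682 counts, 0.728% of the Rmrp count. On the same strand, Ccnb1ip1 shares 233 exonic bases with Rpph1 and had 22 counts. The annotated miRNA Gm47295 inside Rn7s1 had 28 counts.

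Total counts ranged from 16913448 to 33213801 per library, and a floor of 3 counts was 0.0903 to 0.177 CPM, the count of a gene relative to the total count of its library. The floors cover counting error only. Estimated counts were scaled with edgeR's TMM factors, which correct library sizes for differences in composition and lay between 0.928 and 1.05. The 9 microglial markers summed to 2138 to 2892 CPM of total counts, and Tmem119 and P2ry12, markers of resting microglia, were between 0 and 1.12 CPM and between 0.721 and 2.79 CPM. Astrocyte markers summed to 37.1 to 98.1 CPM in the libraries numbered 3 and to 8.08 to 19.5 CPM in the other libraries. Fibroblast markers summed to 17.1 to 55.3 CPM and to 4.39 to 19.6 CPM, respectively. Markers of the oligodendrocyte lineage summed to 11.1 to 26.6 CPM and neuronal markers to 2.48 to 16.0 CPM over the 9 libraries.

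The targeted mRNAs were checked first. Chd8 was at 118, 97.3, and 93.5 TMM-scaled CPM in control siRNA libraries 1 to 3 and at 86.7, 44.5, and 38.2 in Chd8 siRNA libraries 1 to 3. The groups did not overlap, and Chd8 siRNA library 1 was the least reduced. The log2 fold change was −0.86 with an adjusted p of 1.00 in edgeR's quasi-likelihood test, and −0.93 with an adjusted p of 0.00777 when the replicate number was added to the fit as a block. With each library left out, the unblocked value ranged from −1.32 (without Chd8 siRNA library 1) to −0.64 (without Chd8 siRNA library 3). Tsc2 was at 40.8, 39.9, and 38.9 TMM-scaled CPM in control siRNA libraries 1 to 3 and at 24.6, 30.6, and 36.4 in Tsc2 siRNA libraries 1 to 3. Every Tsc2 siRNA library was below every control library, with a log2 fold change of −0.38 (adjusted p = 1.00, and 0.219 with the block). The unblocked value ranged from −0.53 (without Tsc2 siRNA library 3) to −0.25 (without Tsc2 siRNA library 1). The block is used beside each result because libraries of the same number deviated together.

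The 6 RNAs together held 4544850 counts, which was 2.13% of all counts. Their summed share was 2.19% ± 0.342 (SD, n = 3) in the control group, 2.20% ± 0.597 with Chd8 knockdown, and 2.19% ± 0.343 with Tsc2 knockdown. The single libraries ranged from 1.74% to 2.87%, and both extremes were Chd8 siRNA libraries. The 3 group means differed by less than the SD of any group. The share is described without a test. In such bulk RNA, fewer cells of a type and less RNA per cell cannot be told apart.

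The levels of the RNAs differed by orders of magnitude. Per kilobase of RNA, Rn7s1 was highest with 46294 ± 9094 CPM (SD over the 9 libraries), 63.0% of the counts of the set and the 6th gene of 54119 by summed count. Rn7sk (11907 ± 1482 CPM per kilobase, 18.1% of the counts) and Rpph1 (11543 ± 2760, 16.8%) followed, and their order does not hold up against the spread between libraries. Rmrp was lower (1611 ± 311 CPM per kilobase, 2.06% of the counts). The RNase P and RNase MRP complexes share most of their proteins, and Rmrp reached between 0.104 and 0.158 of the Rpph1 count. Rny3 (17.2 ± 6.62 CPM per kilobase, 377 counts in all) and Rny1 (0.392 ± 0.404, 10 counts in all) were far below. The ranges over libraries of Rn7s1, Rmrp, Rny3, and Rny1 did not overlap with one another or with the other RNAs.

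**Figure D1:**
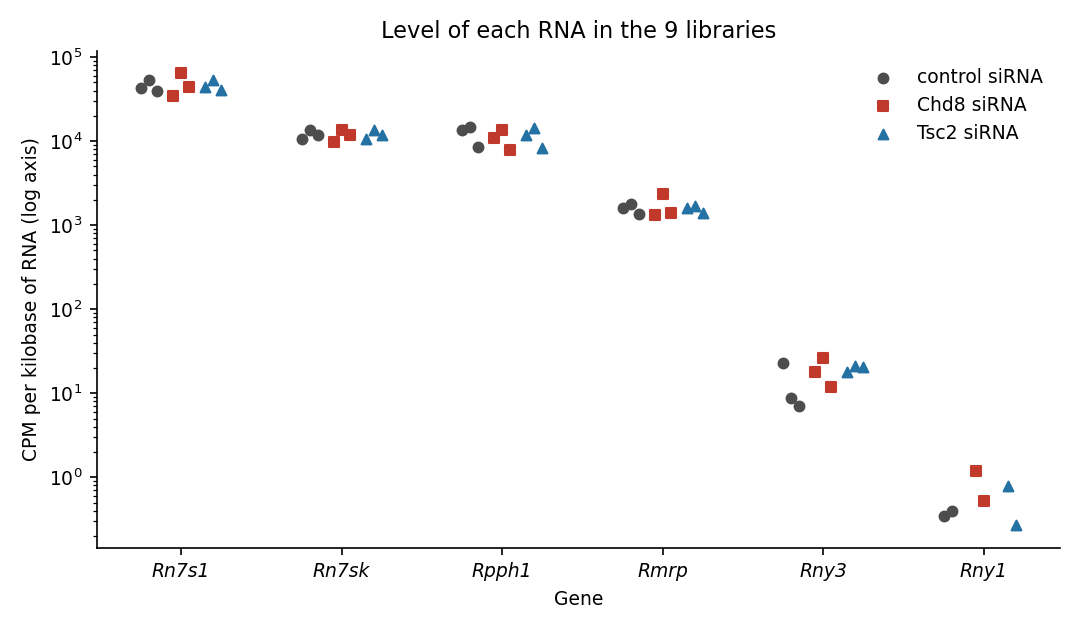
CPM of total counts per kilobase of RNA (log axis) for 6 Pol III RNAs, 1 point per library, colored by siRNA group. The RNAs separate by level, from a mean of 46294 for Rn7s1 to 0.392 for Rny1, while the 3 groups of each RNA overlap. The libraries with 0 counts of Rny1 cannot be drawn on a log axis and are left out.

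7SK RNA was nearly the same in the 3 groups at each replicate number. Rn7sk was at 3440, 4729, and 3726 TMM-scaled CPM in control siRNA libraries 1 to 3, at 3199, 4865, and 3848 in Chd8 siRNA libraries, and at 3395, 4733, and 3787 in Tsc2 siRNA libraries. The library numbered 2 was the highest in every group, the one numbered 1 the lowest, and the groups overlapped. The 3 libraries of one number differed by at most 1.08-fold, whereas the highest and the lowest of the 9 differed by 1.52-fold. With the block, the log2 fold change was −0.0054 (95% interval −0.12 to 0.11) with Chd8 siRNA and 0.0017 (−0.11 to 0.11) with Tsc2 siRNA, both against control. In fold terms the Chd8 siRNA interval runs from 0.922 to 1.08 and the Tsc2 siRNA interval from 0.926 to 1.08. Without the block the Chd8 siRNA interval runs from 0.741 to 1.35.

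7SL RNA varied more, and most of all in the Chd8 siRNA group. Rn7s1 was at 12797, 16497, and 11337 TMM-scaled CPM in control siRNA libraries 1 to 3. In Chd8 siRNA libraries 1 to 3 it was at 10222, 20759, and 13016. In Tsc2 siRNA libraries 1 to 3 it was at 12784, 17051, and 11803. The highest and the lowest of all 9 values were both Chd8 siRNA libraries, so that this group spans the other groups. Against the control library of the same number, the Chd8 siRNA ratios were 0.799, 1.26, and 1.15, and the Tsc2 siRNA ratios were 0.999, 1.03, and 1.04. With the block, the log2 fold change was 0.08 with Chd8 siRNA (95% interval −0.12 to 0.27, adjusted p = 0.799) and 0.03 with Tsc2 siRNA (−0.16 to 0.23, adjusted p = 0.945) in edgeR's test. Without the block, it was 0.11 with Chd8 siRNA (−0.47 to 0.70). The Chd8 siRNA value moved with the library left out. The blocked log2 fold change was 0.26 without Chd8 siRNA library 1 (adjusted p = 0.0444 in edgeR's test, under the fold change of 1.5 needed for a call), 0.18 without control library 1 (0.492), 0.0096 without control library 2 (0.991), and −0.05 without Chd8 siRNA library 2 (0.917). Without control or Chd8 siRNA library 3 it was 0.04 and 0.03. Chd8 siRNA library 1 was also the library with the weakest reduction of Chd8. The part of the knockdown level in this result was not tested.

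The RNA of RNase MRP followed the pattern of 7SL. Rmrp was at 448, 521, and 365 TMM-scaled CPM in control siRNA libraries 1 to 3, at 368, 705, and 390 in Chd8 siRNA libraries, and at 434, 500, and 383 in Tsc2 siRNA libraries. The groups overlapped, and Chd8 siRNA library 2 stood above the other 8 libraries. Its ratio to control library 2 was 1.35, against 0.821 and 1.07 for the Chd8 siRNA libraries numbered 1 and 3. With the block, the log2 fold change was 0.09 with Chd8 siRNA (95% interval −0.14 to 0.33, adjusted p = 0.800) and −0.01 with Tsc2 siRNA (−0.24 to 0.22, adjusted p = 0.986). The Chd8 siRNA value moved with the library left out, from −0.10 without Chd8 siRNA library 2 to 0.26 without Chd8 siRNA library 1. It was 0.19 without control library 1, 0.013 without control library 2, 0.07 without control library 3, and 0.12 without Chd8 siRNA library 3. With all libraries and without the block, the Chd8 siRNA value was 0.13 (95% interval −0.42 to 0.68).

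The RNA of RNase P was the only one of the set that was lower with Chd8 siRNA at every replicate number. Rpph1 was at 4228, 4932, and 2553 TMM-scaled CPM in control siRNA libraries 1 to 3, at 3488, 4710, and 2470 in Chd8 siRNA libraries, and at 3706, 4795, and 2596 in Tsc2 siRNA libraries. The groups overlapped, and the library numbered 3 was the lowest in every group. The ratios of Chd8 siRNA to control were 0.825, 0.955, and 0.968 at numbers 1 to 3, and those of Chd8 siRNA to Tsc2 siRNA were 0.941, 0.982, and 0.952. Among all genes tested, 36.0% moved one way at all 3 numbers with Chd8 siRNA against control, and 1 of the 5 tested RNAs did. Between Chd8 siRNA and Tsc2 siRNA, 32.1% of all genes and 1 of the 5 RNAs did, and for Tsc2 siRNA against control 31.8% and 0 of 5. With the block, the log2 fold change of Rpph1 was −0.13 ± 0.058 (SE) with Chd8 siRNA against control, with a 95% interval of −0.25 to −0.0086, an unadjusted p of 0.0377, and an adjusted p of 0.344 in edgeR's test. It did not pass the threshold. Without the block, the value was −0.13 (95% interval −0.82 to 0.55, unadjusted p = 0.672 in edgeR's test). With library totals in place of TMM, the blocked value was −0.17 (adjusted p = 0.155). Without control siRNA library 1 it was −0.06 (adjusted p = 0.739), and without Chd8 siRNA library 1 −0.09 (adjusted p = 0.652). Without each of the other 4 libraries of this comparison it lay between −0.17 and −0.14 (adjusted p from 0.468 to 0.550). For Tsc2 siRNA against control the blocked log2 fold change was −0.07 (−0.19 to 0.05, adjusted p = 0.755).

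Both Y RNAs had few counts, with Rny1 around the floor of 3 counts and Rny3 above it in every library. Rny3 was at 2.30, 0.923, and 0.686 TMM-scaled CPM in control siRNA libraries 1 to 3, at 1.81, 2.93, and 1.19 in Chd8 siRNA libraries, and at 1.79, 2.25, and 2.02 in Tsc2 siRNA libraries. These values rest on 15 to 69 counts per library. Control siRNA library 1 was higher than all Tsc2 siRNA libraries, and the other control libraries were lower than every library with Chd8 or Tsc2 siRNA. The log2 fold change was 0.58 with Chd8 siRNA (95% interval −0.59 to 1.75) and 0.62 with Tsc2 siRNA (−0.54 to 1.78), and 0.60 and 0.74 with the block, where the adjusted p was 0.669 and 0.657 in edgeR's test. The unblocked values moved with the library left out. With Chd8 siRNA they ranged from 0.20 (without Chd8 siRNA library 2) to 1.29 (without control library 1), and were 0.27 without control library 3. With Tsc2 siRNA they ranged from 0.31 (without control library 3) to 1.33 (without control library 1). The counts of Rny1 in libraries 1 to 3 were 1, 0, and 1 with control siRNA, 4, 1, and 0 with siRNA against Chd8, and 2, 0, and 1 with siRNA against Tsc2. It did not pass the count filter and was not fitted. In the libraries with 0 counts, a level of up to 0.177 CPM (control 2), 0.125 CPM (Chd8 siRNA 3), and 0.143 CPM (Tsc2 siRNA 2) is allowed. No fold change is given for Rny1.

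**Figure D2:**
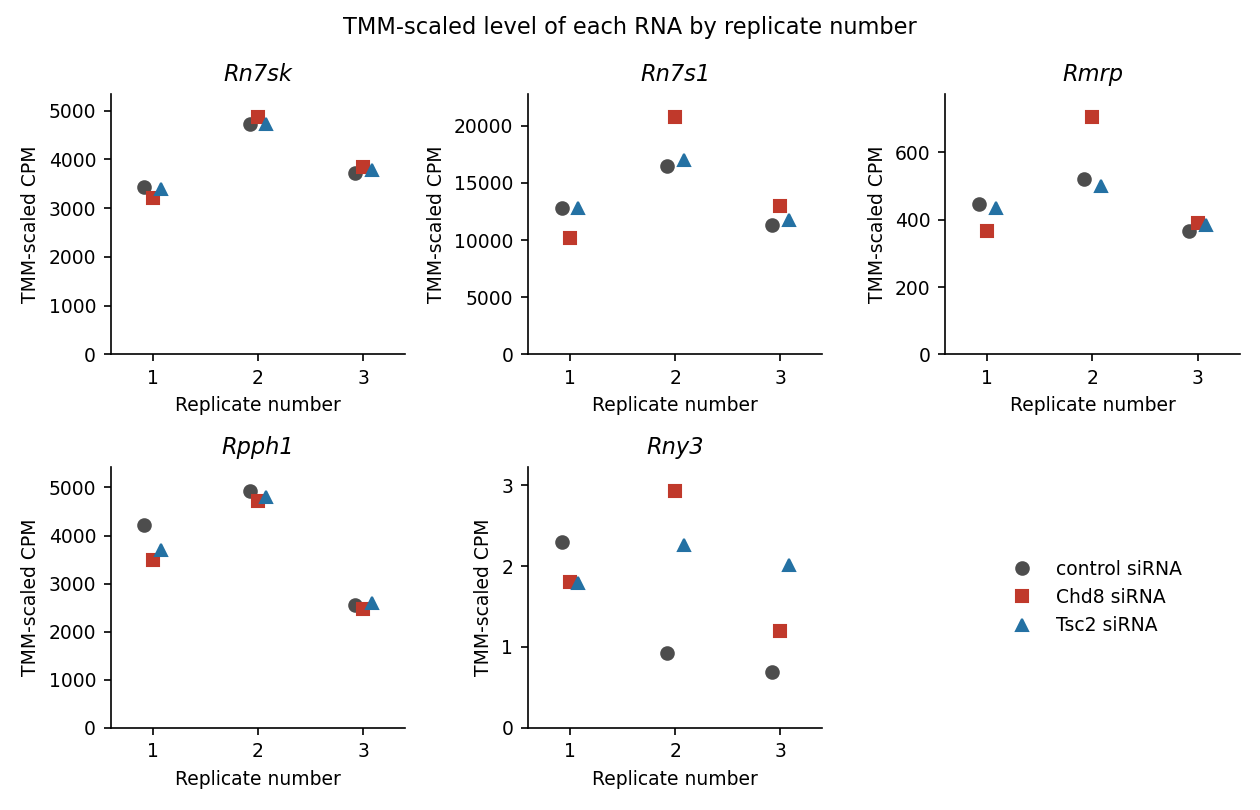
TMM-scaled CPM (y axis, from 0) of the 5 RNAs that passed the count filter, by replicate number (x axis), 1 point per library, colored by siRNA group. Rn7sk, Rn7s1, Rmrp, and Rpph1 are highest at number 2 in each group, and Rpph1 is lowest at number 3, while the 3 groups overlap for every RNA. Control siRNA library 1 is the control point of Rny3 that lies above the Tsc2 siRNA points.

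None of the 5 tested RNAs was called in any comparison. A gene was called at a false discovery rate of 0.05 with a fold change of 1.5 in edgeR's quasi-likelihood test. With the siRNA as the only factor, 0 of 5 RNAs were called for Chd8 siRNA against control, for Tsc2 siRNA against control, and for Chd8 siRNA against Tsc2 siRNA, and so were 0 (0%) of the 16273 genes in each comparison. At an unadjusted p under 0.05, 0 of 5 RNAs passed in each, beside 622, 425, and 504 genes. With the replicate block, 0 of 5 RNAs were again called, beside 87 (0.535%), 63 (0.387%), and 36 (0.221%) of all genes. At an unadjusted p under 0.05, the blocked fit gave 1 of 5 RNAs (Rpph1) for Chd8 siRNA against control and 0 in the other comparisons, beside 2090, 1737, and 1745 genes. DESeq2's Wald test and limma-voom called 0 of them as well. The groups of libraries overlapped for all 6 RNAs in each comparison, whereas 9.09%, 8.11%, and 8.44% of all tested genes did not overlap. Two-sided exact permutation tests gave p between 0.4 and 1 over 18 comparisons, where 3 libraries against 3 cannot go below 0.1.

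The blocked fit held narrower intervals for the abundant RNAs. The mean SE of the log2 fold change fell from 0.195 to 0.0527 for Rn7sk, from 0.309 to 0.0576 for Rpph1, from 0.263 to 0.0914 for Rn7s1, and from 0.247 to 0.110 for Rmrp. For Rny3 it was 0.520 and 0.480. Over the comparisons with control, the blocked 95% intervals of Rn7sk, Rn7s1, Rmrp, and Rpph1 lay between a fold of 0.838 and 1.25, within the fold of 1.5 needed for a call. The interval of Rny3 ran up to a fold of 3.41. Without the block, the Chd8 siRNA intervals reached past a fold change of 1.5. They ran from a fold of 0.721 to 1.63 for Rn7s1, 0.749 to 1.61 for Rmrp, and 0.565 to 1.47 for Rpph1. The median log2 fold change over the 5 RNAs was 0.08 with Chd8 siRNA and 0.0017 with Tsc2 siRNA in the blocked fit, beside −0.02 and −0.01 over all genes tested.

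**Figure D3:**
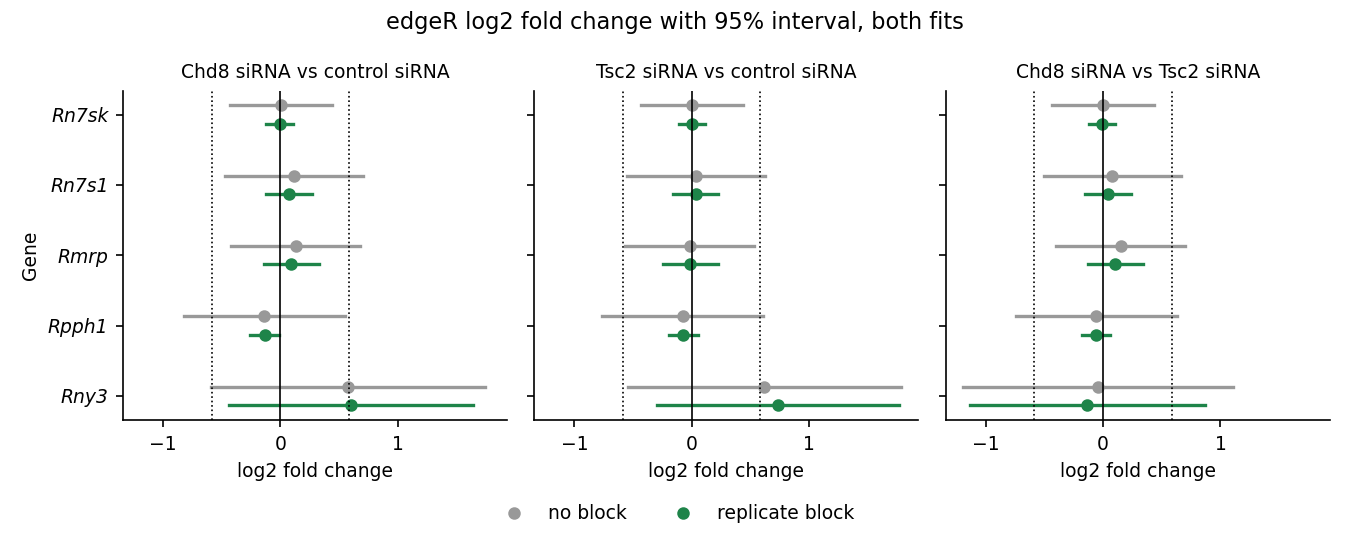
edgeR log2 fold change (x axis) of 5 RNAs with its 95% interval (bars), without the block in gray and with the replicate block in green, for the 3 comparisons. Dotted lines mark a fold change of 1.5 in either direction. The blocked intervals of Rn7sk, Rn7s1, Rmrp, and Rpph1 lie inside the dotted lines, and those of Rny3 do not.

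The spread of the 4 abundant RNAs was taken mostly by the replicate number. Of the sum of squares of log2(CPM + 0.5) over the 9 libraries, the number took 98.0% for Rn7sk, 96.6% for Rpph1, 81.9% for Rn7s1, and 73.9% for Rmrp, whereas the siRNA took 0.0223%, 1.90%, 0.832%, and 2.06%. The medians over all genes tested were 41.9% for the number and 18.0% for the siRNA. Rny3 differed from the abundant RNAs with 24.4% and 29.8%. The RNAs did not share one order of the numbers. Averaged over the 3 groups, Rn7sk was at 3344 ± 128, 4775 ± 77.3, and 3787 ± 61.4 TMM-scaled CPM (SD, n = 3) at numbers 1 to 3. Rpph1 was at 3807 ± 380, 4812 ± 112, and 2540 ± 63.9. Number 3 was thus the lowest for Rpph1 and between the others for Rn7sk, and the Rpph1 count per Rn7sk count fell in the range of 0.642 to 0.686 at number 3 and of 0.968 to 1.23 at the other numbers. Total counts were lower at number 2 in each group (16913448, 16949190, and 20997419) than at numbers 1 and 3, and astrocyte and fibroblast markers were higher at number 3 within each group. Markers of the oligodendrocyte lineage were lowest at number 3 within each group, and microglial markers were lowest there with control and with Chd8 siRNA. The part of depth and of other cells in the levels of these RNAs was not tested, and what a replicate number stands for is not given in the labels.

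**Figure D4:**
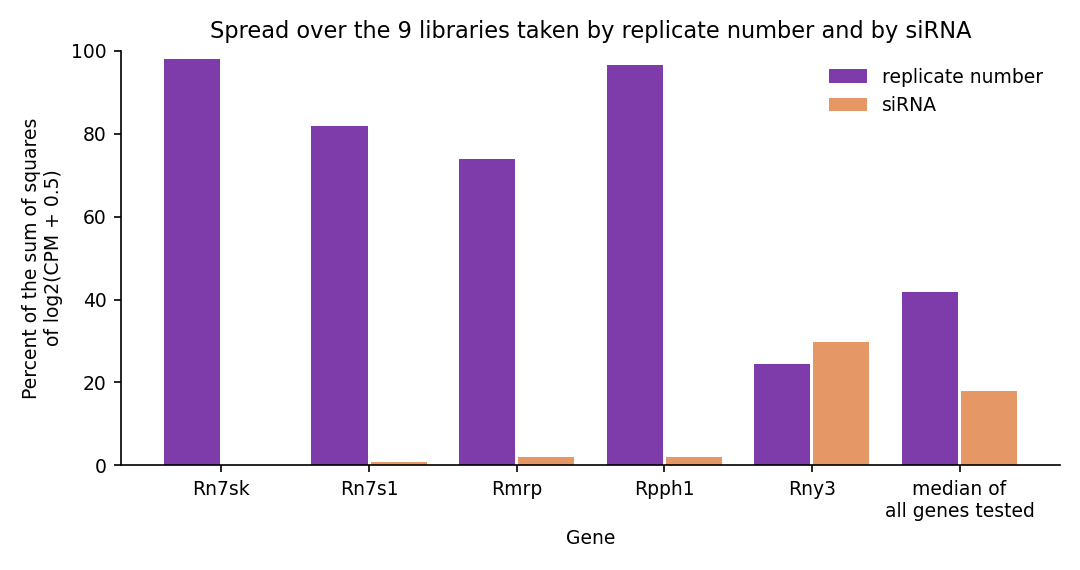
Percent of the sum of squares of log2(CPM + 0.5) over 9 libraries (y axis, bars from 0) taken by the replicate number (purple) and by the siRNA (orange), for 5 RNAs and as the median of all genes tested. The number takes from 73.9% to 98.0% for the 4 abundant RNAs, above the median of 41.9%, and 24.4% for Rny3.

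The genes whose TMM-scaled log2 CPM was most like that of each RNA over the 9 libraries were listed by Pearson's r. These 9 points share replicate numbers, so that r describes the pattern only. Rn7s1 and Rmrp were among the 3 genes most like each other (r = 0.954), together with Ccdc146 (0.988) and Chd2 (0.946) for Rn7s1, and Osbpl2 (0.972) and Gm24245 (0.958) for Rmrp. Gm24245 is annotated as a miRNA and was at 68293 to 108271 TMM-scaled CPM. Rpph1 was most like Sun1 (0.967), Gm42418 (0.964), and Snora23 (0.962). Gm42418, which RefSeq lists as the 18S ribosomal RNA pseudogene Rn18s-rs5, was at 3051 to 3759 TMM-scaled CPM at number 3 and at 4663 to 7644 at the other numbers. Rn7sk was most like Hal (0.980), Snd1 (0.974), and Ctla2a (0.973), and Rny3 like Mapk14 (0.961), Mfap1b (0.947), and Brap (0.945). Some of these genes were close to the floor, with Ccdc146 at 0 to 2.04, Snora23 at 0.0411 to 0.984, and Hal at 0.201 to 3.82 TMM-scaled CPM, so that their r rests on few counts.

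The Pol III machinery and the protein partners of these RNAs were compared in the same fits. In edgeR's test without the block, 0 genes of any list were called in any comparison, and DESeq2's Wald test called 1 list gene, Srp14, with Chd8 siRNA against control. With the block, 0 of 12 tested Pol III subunits and 0 of 19 Pol III factors were called in any comparison, with median log2 fold changes of −0.08 and −0.09 with Chd8 siRNA against control, beside −0.02 over all genes. Polr3c, a Pol III subunit and the one with the most counts, was at 43.6, 39.9, and 33.5 TMM-scaled CPM in control siRNA and at 48.0, 49.5, and 55.2 in Chd8 siRNA libraries 1 to 3. Its blocked log2 fold change of 0.39 had an adjusted p of 0.157 in edgeR's test. Bdp1, a part of the initiation factor TFIIIB and the factor with the most counts, had log2 fold changes of −0.05 with Chd8 siRNA (adjusted p = 0.897) and 0.09 with Tsc2 siRNA (adjusted p = 0.834) in the blocked fit.

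Among the partners of 7SK, 1 of 6 was called as lower with Chd8 siRNA against control in the blocked fit, beside 0.535% of all genes called. Hexim1, the protein that inhibits P-TEFb when bound to 7SK, was at 48.0, 29.6, and 49.1 TMM-scaled CPM in control siRNA libraries 1 to 3, at 37.3, 15.9, and 21.6 in Chd8 siRNA libraries, and at 35.5, 26.3, and 32.0 in Tsc2 siRNA libraries. It was lower than the control of the same number in every library with Chd8 or Tsc2 siRNA, while the control and Chd8 siRNA groups overlapped. Among all genes tested, 36.0% with Chd8 siRNA and 31.8% with Tsc2 siRNA moved one way at all 3 numbers. The log2 fold change of Hexim1 was −0.80 with Chd8 siRNA (adjusted p = 0.0218 with the block, and 1.00 without it) and −0.41 with Tsc2 siRNA (adjusted p = 0.317 with the block). The Chd8 siRNA call was lost without control siRNA library 2 (log2 fold change −0.83, adjusted p = 0.0957) or 3 (−0.64, 0.253) and without Chd8 siRNA library 2 (−0.70, 0.152) or 3 (−0.64, 0.190). Of the other partners, named here after their values were seen, Larp7 and Mepce, proteins that bind 7SK RNA itself, did not overlap between Chd8 siRNA and control, as was so for 9.09% of all tested genes. Larp7 was at 16.6, 14.0, and 16.2 TMM-scaled CPM in control siRNA and at 22.1, 20.4, and 26.3 in Chd8 siRNA libraries (blocked log2 fold change 0.55, adjusted p = 0.0876 in edgeR's test). Mepce was at 16.9, 12.9, and 16.9 in control siRNA and at 12.2, 9.87, and 8.46 in Chd8 siRNA libraries (−0.61, adjusted p = 0.1004). Neither was called. The median over the 6 partners was −0.16, beside −0.02 over all genes. Rn7sk itself was at a blocked log2 fold change of −0.0054 in the same comparison. For Tsc2 siRNA against control 0 of 6 partners were called.

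Among the SRP proteins, 1 of 8 was called as higher with Chd8 siRNA and 1 of 8 with Tsc2 siRNA in the blocked fit, both times Srp14. Of all genes tested, the same fit called 0.535% with Chd8 siRNA and 0.387% with Tsc2 siRNA, both against control. Srp14, which binds the Alu domain of 7SL RNA, was at 25.9, 24.2, and 16.2 TMM-scaled CPM in control siRNA libraries 1 to 3, at 39.3, 56.3, and 53.0 in Chd8 siRNA libraries, and at 40.2, 40.3, and 40.8 in Tsc2 siRNA libraries. Every library with Chd8 or Tsc2 siRNA was above every control library. Groups did not overlap with control, in either direction, for 9.09% of all tested genes with Chd8 siRNA and for 8.11% with Tsc2 siRNA. The log2 fold changes of Srp14 were 1.17 with Chd8 siRNA (95% interval 0.82 to 1.51, adjusted p = 0.00435) and 0.88 with Tsc2 siRNA (0.54 to 1.22, adjusted p = 0.0188) with the block, both against the same control libraries. In edgeR's test without the block the adjusted p was 0.943 and 1.00. For Chd8 siRNA the unblocked value was called by DESeq2's Wald test (log2 fold change 1.17, adjusted p = 0.000923), and the other unblocked fits of all libraries or of 2 groups gave 0.0558 to 1.00. For Tsc2 siRNA they gave 0.175 (DESeq2's Wald test) to 1.00. The Chd8 siRNA call held without each of the 6 libraries in turn (adjusted p from 0.00343 to 0.0432). The Tsc2 siRNA call was lost without control siRNA library 2 (log2 fold change 0.91, adjusted p = 0.103) or 3 (0.65, 0.171) and without Tsc2 siRNA library 2 (0.97, 0.0926) or 3 (0.81, 0.121). The median blocked log2 fold change of the 8 SRP proteins was 0.17 with Chd8 siRNA and 0.27 with Tsc2 siRNA. The medians over all genes tested were −0.02 and −0.01, and Rn7s1 was at 0.08 and 0.03. With Chd8 siRNA 6 of 8 values were above 0, the lowest being −0.31, and with Tsc2 siRNA 8 of 8. Srp72, named after its values were seen, was lower with Chd8 siRNA without overlap and was not called. It was at 53.8, 58.8, and 51.3 TMM-scaled CPM in control and at 43.5, 42.7, and 45.3 in Chd8 siRNA libraries.

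Among the proteins of RNase P and RNase MRP, 0 of 10 tested were called in any comparison with or without the block. Pop4, the one with the most counts, had blocked log2 fold changes of −0.12 with Chd8 siRNA (adjusted p = 0.838) and 0.21 with Tsc2 siRNA (adjusted p = 0.733). Of the 2 tested partners of Y RNAs, 0 were called. Ssb, the La protein that binds the 3′ end of new Pol III transcripts, was at 69.5, 69.4, and 70.2 TMM-scaled CPM in control siRNA libraries 1 to 3, at 87.2, 94.7, and 91.1 in Chd8 siRNA libraries, and at 79.0, 88.8, and 83.7 in Tsc2 siRNA libraries. Every library with Chd8 or Tsc2 siRNA was above every control library. Among all tested genes, 9.09% with Chd8 siRNA and 8.11% with Tsc2 siRNA did not overlap with control in either direction. The blocked log2 fold change of Ssb was 0.38 with Chd8 siRNA, under the fold change of 1.5, with an adjusted p of 0.0420 in edgeR's test. The adjusted p was 0.0634 to 0.254 with any of the 6 libraries left out, 0.0655 with library totals, and 1.00 without the block. With Tsc2 siRNA, the blocked value of 0.26 had an adjusted p of 0.220. Of the other Pol III RNAs 7 passed the filter and 0 were called, n-R5s100, a 5S ribosomal RNA gene, having the most counts (blocked log2 fold change −0.05 with Chd8 siRNA). Of the small nuclear and nucleolar RNAs made by RNA polymerase II, 5 passed and 0 were called, and Rnu1a1, a U1 RNA gene, had the most counts (0.02 with Chd8 siRNA and 0.48 with Tsc2 siRNA, adjusted p = 0.982 and 0.418).

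**Figure D5:**
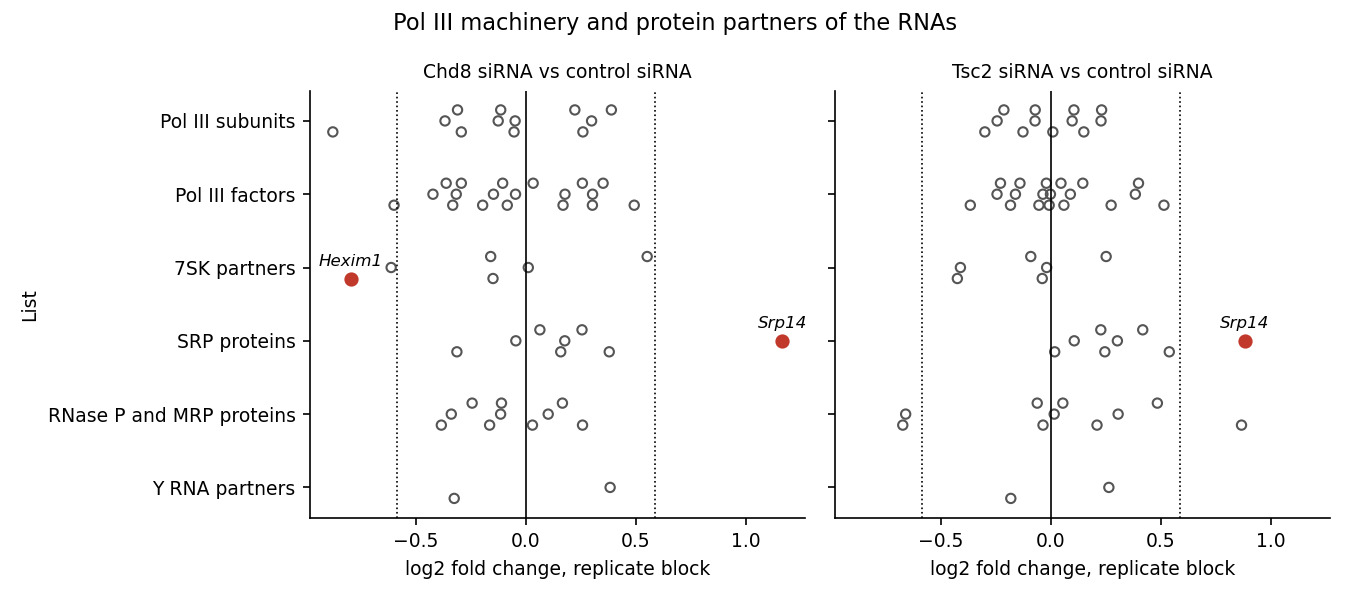
Blocked edgeR log2 fold change (x axis) of each tested gene in 6 lists (rows), with Chd8 siRNA (left) and Tsc2 siRNA (right) against the same control libraries. Filled red points are the called genes, Srp14 in both panels and Hexim1 in the left one, and open points were not called. Dotted lines mark a fold change of 1.5 in either direction.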

How the data were processed

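Total RNA of 9 primary microglia libraries was sequenced, and the authors deposited salmon 0.14.1 output on the mm10 reference as estimated counts per transcript, neither normalized nor pooled. The annotation release is not given in the sources used here. For library preparation, an Illumina total RNA protocol is named in the methods and a SMARTer stranded kit in the labels. How the preparation retains RNAs near 100 bases in length is not described, which could affect the levels of the Y RNAs. Salmon divides reads between similar transcripts, so that counts of copies are estimates.

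Columns were matched to samples through the sample descriptions, and groups were taken from the siRNA in the labels. GENCODE mouse release 21 gave a gene for 139852 of 140948 transcripts, and the remaining 1096 (0.270% of counts) were left out of gene tests. Counts were summed per gene and rounded. Shares and CPM per kilobase use the total count of all transcripts. Genes were filtered with filterByExpr (16273 kept), scaled with TMM, and tested with edgeR 4.0.16 (glmQLFit, glmQLFTest, R 4.3.3) with all 9 libraries in one fit. P-values were adjusted over all 16273 genes by the Benjamini-Hochberg method. Exact permutation tests used log2(CPM + 0.5). Copies were found with BLAST 2.17.0. limma 3.58.1 and DESeq2 1.42.0 were alternatives. The scripts were tested on simulated data.

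The replicate numbers come from the sample titles. Deviations from group means correlated across genes for each of the 9 pairs of the same number (r from 0.337 to 0.628, mean 0.466). For the 18 pairs of different numbers, r ran from −0.461 to 0.0559 (mean −0.231), in part because deviations within a group sum to 0. The numbers were therefore taken to pair the libraries, and the replicate block was fitted as the alternative. The biological coefficient of variation was 0.408 without and 0.234 with the block. Precision at each depth is given as the floor of 3 counts.

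The named genes were the members of the set, the targeted genes, list genes called in any fit or else the one with the most counts in its list, and the 3 genes most like each tested member. The members and lists were chosen with earlier results of these data known. Ccdc107, Ccnb1ip1, and Gm47295 are named for their overlap with a member. The sequence of 7SL RNA is not reported here.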

Additional observations from a re-analysis of the deposited data

How the results depend on the processing

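No member of the set was called under any of the 25 alternatives to each comparison. These were DESeq2 size factors, library totals, members left out of the library sizes, no count filter, limma-voom, DESeq2's Wald test, fits of 2 groups, no fold-change threshold, the replicate block, and each library left out. The block combined with another setting, and the alternatives for the overlap of groups and for the targeted genes, were chosen after seeing the data. Merging Rn7s1 with Rn7s2 gave no other value, because Rn7s2 was not analysed on its own. Apart from the blocked fits with a library left out, 255 log2 fold changes were computed under alternatives, of which 214 kept their sign and 41 did not, each between values that were never called, and the cause was not tested. Of the 90 blocked values with a library left out, 68 had the sign of the blocked value of all libraries and 22 did not.

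With the replicate block, which pairs libraries by number, the log2 fold change of Rn7sk was −0.0054 with Chd8 siRNA against control (−0.0054 with members left out of the library sizes, −0.048 with library totals) in place of 0.0021. Without the block it was −0.043 with library totals and −0.0082 with limma-voom. For Tsc2 siRNA against control, Rn7sk was −0.0085 with library totals, −0.0079 with library totals and the block, and −0.0011 with 2 groups only, and Rmrp was 0.0041 with no count filter. For Chd8 siRNA against Tsc2 siRNA, Rn7sk was 0.0073 with DESeq2 size factors, 0.0073 with DESeq2's Wald test, 0.00047 with size factors and the block, and 0.00015 with 2 groups only. Of the results on the targeted genes, Chd8 passed the threshold with the block, at −0.93 (−0.97 with library totals, −0.93 with members left out, −0.92 with DESeq2 size factors). The block changed no call of a member. In the lists, Hexim1 and Srp14 were called with the block in edgeR's test, and Srp14 with Chd8 siRNA also by DESeq2's Wald test without it (adjusted p = 0.000923).

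Leaving out each library, the values with Chd8 siRNA against control ranged from −0.17 to 0.15 for Rn7sk, −0.22 to 0.32 for Rn7s1, −0.23 to 0.30 for Rmrp, −0.39 to 0.078 for Rpph1, and 0.20 to 1.29 for Rny3. With Tsc2 siRNA against control they ranged from −0.14 to 0.15 for Rn7sk, −0.14 to 0.21 for Rn7s1, −0.14 to 0.11 for Rmrp, −0.31 to 0.13 for Rpph1, and 0.31 to 1.33 for Rny3. Between Chd8 siRNA and Tsc2 siRNA they ranged from −0.17 to 0.14 for Rn7sk, −0.26 to 0.28 for Rn7s1, −0.21 to 0.32 for Rmrp, −0.31 to 0.17 for Rpph1, and −0.43 to 0.22 for Rny3. The number of members whose groups did not overlap was between 0 and 1 against control for both knockdowns, namely Rny3 without control siRNA library 1 in both (1 of 6, beside 20.3% of all tested genes with Chd8 siRNA and 21.7% with Tsc2 siRNA) and Rny1 without Chd8 siRNA library 3 (1 of 6, beside 18.5%). The Rny1 value rests on at most 4 counts per library, and Rny1 is not among the tested genes. As a share of the counts of protein-coding genes, the set held 2.83% in control siRNA, 2.82% in Chd8 siRNA, and 2.78% in Tsc2 siRNA libraries. Depth sets the counting error, which weighs most on Rny1 and Rny3, the members with at most 69 counts in each library.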
